A study of Chlamydomonas reinhardtii with 4 samples.

Results

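Fatty acids of a green alga are built in the plastid and then placed in the lipids of its membranes. The 15 genes described here, of 17741 in the tables, carry symbols of that pathway and were chosen by symbol, with earlier results of these data known. They are acyl carrier proteins (ACP), condensing enzymes (KAS), a dehydratase (HAD1), subunits of acetyl-CoA carboxylase (BCC), fatty acid desaturases (FAD) and enzymes of membrane lipid head groups (DGD, SQD and BTA). They fall into 3 role groups, with 7 genes of plastid fatty acid synthesis, 3 desaturases and 5 membrane lipid genes. The rule also covered symbols of storage lipid enzymes and oil body proteins, which no row matched, so storage lipids are not analysed here. The measurements are mRNA levels in Chlamydomonas reinhardtii, a unicellular green alga with 1 large plastid, wild-type strain FACHB-1121.

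There were 4 groups of 1 library each: an unexposed control at 2 h, a control at 12 h, cells exposed to 0.5 mg/L silver nanoparticles (AgNPs) for 2 h and cells exposed for 12 h. All cultures grew in TAP medium, which contains acetate, at 25 °C, with agitation and illumination of 2000 lux. With 1 library per group no difference could be set against an experimental error, so differences are given by size, without a p-value. In bulk cultures, more or fewer cells in a given state and more or less RNA per cell cannot be told apart.

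Acetyl-CoA carboxylase, of which the biotin carboxyl carrier protein is a subunit, makes the malonyl units. The acyl carrier protein holds the growing chain, the condensing enzymes lengthen it, and the dehydratase removes water in each round of elongation. Desaturases then insert double bonds into fatty acids, and in plastid membranes the chains reside mainly in galactolipids and a sulfolipid. Chlamydomonas also makes a betaine lipid in place of the phosphatidylcholine of most plants. Polyunsaturated galactolipids are the main lipids of its photosynthetic membranes.

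Values are FPKM, fragments scaled to transcript length and library size, as deposited. Comparisons between libraries used log2(FPKM + 1), which understates the change of low genes, and was limited to genes averaging 5 FPKM or more across the 4 libraries, which were 12 of the 15 members and 3271 of all genes. The sum of all FPKM was 492502 for the 2 h control and between 1143199 and 1663726 for the others, so the 2 h control stood apart. Its spacing of low values gave it the greatest estimated depth, the others being at 0.363 to 0.566 of it. That estimate rests on 10.0% to 14.0% of low genes. It presumes that each library was scaled by its own reads, which is not given. The median tested gene was higher with AgNPs, by 0.48 at 2 h and 0.44 at 12 h (log2), and higher at 12 h than at 2 h, by 0.26 in the controls and 0.20 with AgNPs. Members are therefore also given as sum-scaled FPKM, in which every library was brought to a sum of 1000000. With equal sums the median tested gene was lower with AgNPs, at -0.77 at 2 h and -0.07 at 12 h. It was also lower at 12 h than at 2 h, at -0.87 in the controls and -0.17 with AgNPs. All 8 measured genes of a list of algal markers, such as RBCS2 of Rubisco and TUA1 of tubulin, were above 0 in the 4 libraries.

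**Figure D1:**
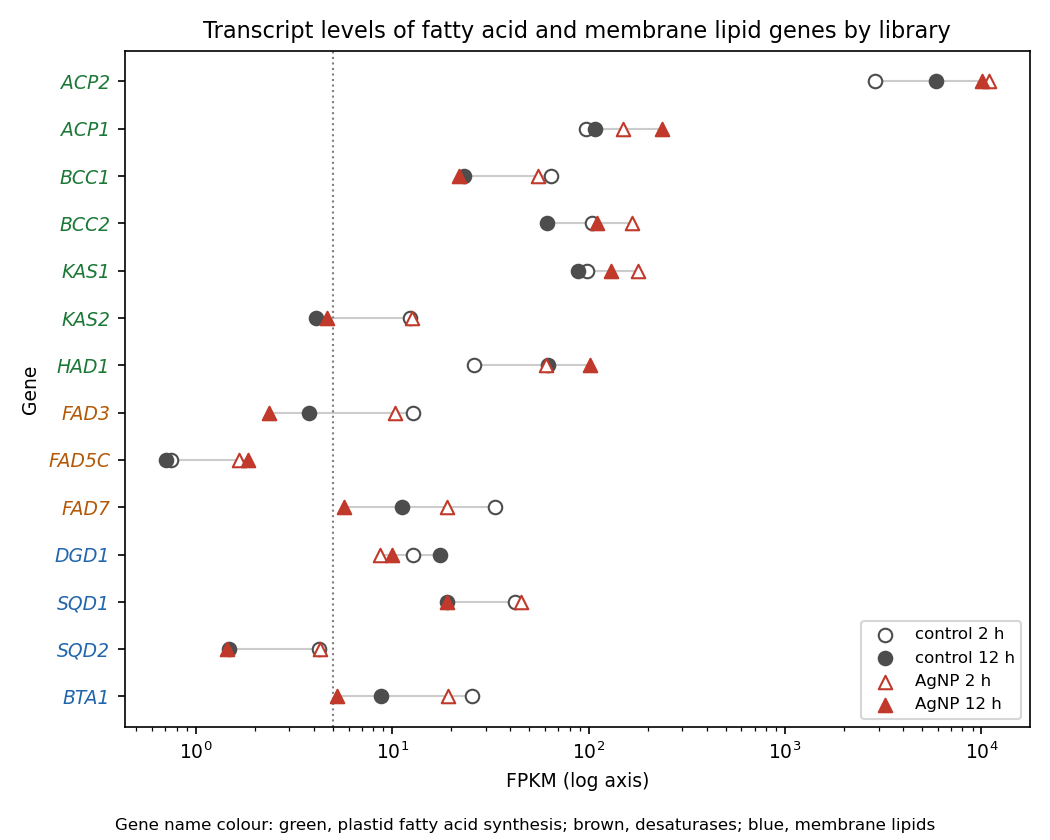
FPKM on a log axis for 14 of the 15 genes, with 1 point per library and no error bars, since each group is 1 library; circles are controls, triangles AgNP libraries, open symbols 2 h and filled symbols 12 h, and the dotted line marks 5 FPKM. ACP2 lies far to the right, and SQD3, listed at 0 in 3 libraries, is left out. FAD3, FAD7, KAS2, SQD1, SQD2, BCC1 and BTA1 have both filled symbols to the left of both open ones. The share of all genes with that order was not computed.

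The levels of these genes spanned a wide range. ACP2 (Cre13.g577100, chromosome 13, 2042871 to 2044565), an acyl carrier protein gene, stood at 2876 FPKM (2 h control), 5835 (12 h control), 10871 (AgNPs for 2 h) and 10100 (AgNPs for 12 h). It ranked 45, 54, 34 and 52 among all genes of these libraries. Both AgNP libraries stood above both controls, on the deposited scale and also in sum-scaled FPKM, where the values were 5839, 5104, 8677 and 6070 in the same order. In sum-scaled FPKM the distance from the control was 1.49-fold at 2 h and 1.19-fold at 12 h, against 3.78-fold and 1.73-fold as deposited.

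ACP1 (Cre16.g673109), the other acyl carrier protein gene, stood at 96.8, 108, 150.4 and 238 FPKM in the same order, which is kept below. Such proteins also occur in mitochondria, as part of respiratory complex I, and the files do not give the compartment of either gene. Both AgNP libraries were above both controls as deposited, but in sum-scaled FPKM ACP1 was highest in the 2 h control (197, 94.2, 120 and 143). The ratio of ACP2 to ACP1, which the scaling between libraries cannot alter, was 29.7, 54.2, 72.3 and 42.5. It was thus higher with AgNPs than without at 2 h and lower at 12 h.

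The biotin carboxyl carrier genes differed from each other. BCC2 (Cre01.g037850) stood at 104.4, 61.4, 167 and 111 FPKM, with both AgNP libraries above both controls. Its sum-scaled values were 212, 53.7, 133 and 66.7, highest in the 2 h control. BCC1 (Cre17.g715250) stood at 64.4, 23.1, 55.2 and 22.0 FPKM, lower at 12 h and close to the control at each time as deposited. Its sum-scaled values were 131, 20.2, 44.1 and 13.2, which is 2.97-fold lower with AgNPs at 2 h and 1.53-fold lower at 12 h. With equal sums the log2 ratio of BCC1 was -1.55 at 2 h and -0.58 at 12 h, beside -0.77 and -0.07 for the median tested gene. Within a library BCC2 exceeded BCC1 by 1.62, 2.66, 3.02 and 5.04 times. The ratio was larger with AgNPs than in the control of the same time, and larger at 12 h than at 2 h.

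The condensing enzyme genes showed the same kind of contrast. KAS1 (Cre11.g467723) stood at 98.6, 88.6, 178 and 131 FPKM, both AgNP libraries above both controls, and at 200.3, 77.5, 142 and 78.6 when sum-scaled. KAS2 (Cre07.g335300), whose plant counterpart carries out the last elongation in the plastid, stood at 12.4, 4.11, 12.7 and 4.67 FPKM. As deposited, KAS2 thus had nearly the same values with and without AgNPs at each time and lower ones at 12 h. Its sum-scaled values were 25.1, 3.60, 10.1 and 2.81, or 2.49-fold lower with AgNPs at 2 h and 1.28-fold at 12 h. With equal sums the log2 ratio of KAS2 was -1.24 and -0.28, beside -0.77 and -0.07 for the median tested gene. The ratio of KAS1 to KAS2 was 7.98, 21.6, 14.0 and 28.0. HAD1 (Cre06.g311850), the hydroxyacyl-ACP dehydratase gene, stood at 26.2, 62.2, 60.9 and 101.4 FPKM. Its sum-scaled values were 53.1, 54.4, 48.6 and 61.0, so that on this scale the highest library (AgNPs for 12 h) was 1.25-fold above the lowest (AgNPs for 2 h).

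FAD7 and FAD3, of the 3 desaturase genes, were low with AgNPs and low at 12 h, and FAD5C was not. FAD7 (Cre01.g038600), which encodes the omega-3 desaturase of the plastid, stood at 33.5, 11.3, 18.9 and 5.68 FPKM. It was lower with AgNPs by 1.77-fold at 2 h and 1.99-fold at 12 h, short of the 2-fold limit used for counts on the log2(FPKM + 1) scale. Sum-scaled it stood at 68.0, 9.87, 15.1 and 3.42. FAD3 (Cre01.g037700), also annotated by its symbol as a desaturase, stood at 12.8, 3.76, 10.3 and 2.37 FPKM, and at 26.0, 3.29, 8.24 and 1.42 sum-scaled. The bond that its enzyme inserts is not given in the files. FAD5C (Cre04.g217939), the third desaturase symbol, stayed under the limit of 5 FPKM, at 0.749, 0.706, 1.66 and 1.84 FPKM. Its AgNP values were above both controls as deposited, but in sum-scaled FPKM that at 2 h (1.32) lay below the 2 h control (1.52).

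Among membrane lipid genes DGD1 and BTA1 were low with AgNPs. DGD1 (Cre13.g583600, chromosome 13, 2902974 to 2909924), which encodes the synthase of digalactosyldiacylglycerol, stood at 12.8, 17.6, 8.70 and 9.94 FPKM. Both AgNP libraries were below both controls as deposited. The sum-scaled values were 26.0, 15.4, 6.94 and 5.98. Both AgNP libraries had larger FPKM sums than both controls, so this order was bound to hold on that scale too. BTA1 (Cre07.g324200), the betaine lipid synthase gene, stood at 25.6, 8.75, 19.4 and 5.23 FPKM, lower with AgNPs at each time and lower at 12 h. Its sum-scaled values were 51.9, 7.65, 15.5 and 3.15, where the same directions were given in advance by the FPKM sums. The ratio of DGD1 to BTA1 was 0.502 and 0.449 at 2 h, without and with AgNPs, and 2.01 and 1.90 at 12 h, so this pair differed by time and little by exposure.

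SQD1 and SQD2, of the sulfolipid genes, were lower at 12 h. SQD1 (Cre16.g656400), which encodes the enzyme that makes the sulfoquinovose head group donor, stood at 42.4, 19.0, 45.3 and 19.0 FPKM, and at 86.1, 16.6, 36.1 and 11.4 sum-scaled, where the AgNP library was the lower at each time. SQD2 (Cre01.g038550), whose plant counterpart joins that head group to the lipid, had a mean of 2.87 FPKM and was not counted. It stood at 4.26, 1.48, 4.29 and 1.45 FPKM, and at 8.65, 1.29, 3.42 and 0.873 sum-scaled. The ratio of SQD1 to SQD2 stayed between 9.95 and 13.1 in the 4 libraries. SQD3 (Cre16.g689150), another sulfolipid symbol, was listed at 0 in 3 libraries and at 0.0976 FPKM after 2 h of AgNPs.

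The first comparison asked which of these transcripts differed after 2 h of exposure. Of the 12 members counted, ACP2 and HAD1 were at least 2-fold higher, against 22.0% of all tested genes, and 0 were at least 2-fold lower, against 1.62%. The log2 ratio was 1.92 for ACP2, above 98.7% of tested genes, and 1.19 for HAD1, above 85.6%. The nearest member under the limit was KAS1, at 0.84. The 7 plastid fatty acid synthesis genes had a median of 0.67 (0.76 without ACP1), while FAD3 and FAD7 had -0.29 and -0.79, and DGD1, SQD1 and BTA1 had -0.51, 0.09 and -0.38. Both desaturases and all 3 membrane lipid genes counted were thus below the median tested gene of 0.48, and 5 of the 7 synthesis genes were above it.

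These 2 h values rest on the control library with the low sum. In sum-scaled FPKM, HAD1 differed by 0.915-fold, which is a log2 ratio of -0.13 with equal sums, where ACP2 had 0.57. With equal sums 7 of the 12 members were at least 2-fold lower and 0 higher, against 35.6% and 0.795% of all tested genes. Against the 12 h control, a comparison that also holds the time difference, ACP2 had a log2 ratio of 0.90, HAD1 -0.03, FAD7 0.70, FAD3 1.25 and BTA1 1.06. DGD1 had -0.94 there. The lower values of FAD7, FAD3 and BTA1 after 2 h therefore hold against the 2 h control and not against the 12 h control.

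**Figure D2:**
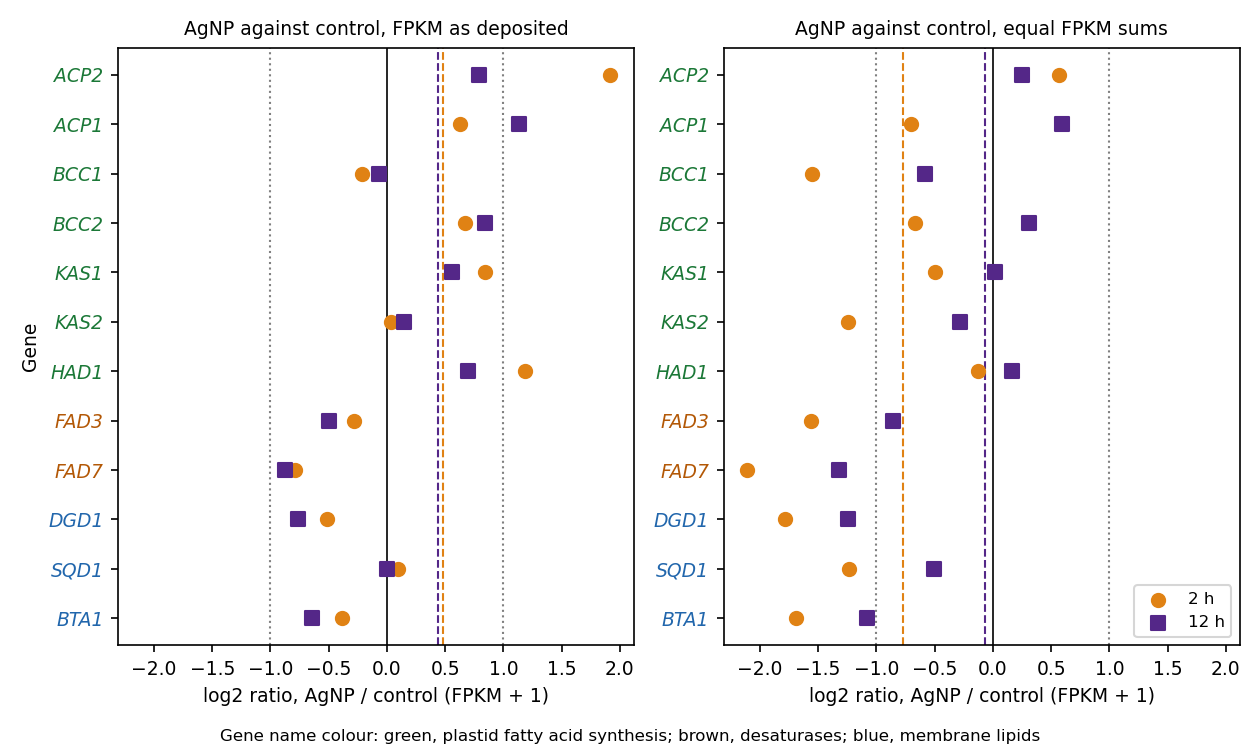
Log2 ratio of FPKM + 1, AgNP over control, for the 12 genes averaging 5 FPKM or more, at 2 h (circles) and 12 h (squares), as deposited on the left and with libraries scaled to equal FPKM sums on the right; dashed lines are the medians of all 3271 tested genes and dotted lines mark 2-fold. On the left FAD3, FAD7, DGD1 and BTA1 lie below 0 at both times and ACP2 is highest at 2 h (1.92); on the right every 2 h value but that of ACP2 (0.57) is below 0.

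The second comparison asked the same after 12 h, with a pair of libraries of which neither was the 2 h control. ACP1 was the 1 member of 12 at least 2-fold higher (log2 ratio 1.13), against 16.7% of tested genes, and 0 were at least 2-fold lower, against 0.459%. ACP2 had 0.79, BCC2 0.84, HAD1 0.70 and KAS1 0.56. These values lie above the median tested gene of 0.44. Below it KAS2 had 0.15, BCC1 -0.07 and SQD1 0.00.

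The members lowest at 12 h were those lowest at 2 h. FAD7 had a log2 ratio of -0.88, a value below which 0.917% of tested genes lay. DGD1 had -0.77, with 2.02% of tested genes lower, BTA1 -0.65, with 3.64% lower, and FAD3 -0.50, with 6.97% lower. At 2 h the shares of tested genes below them were 3.30% for FAD7, 7.09% for DGD1, 9.97% for BTA1 and 12.0% for FAD3. All 4 were below 0 at both times as deposited and once the trend with gene span was taken out. They were so too with equal sums and with ratios centred on the median tested gene. Both of those steps lower the AgNP ratios at each time, so a gene below 0 as deposited was bound to stay below 0 there. With equal sums FAD7 (-1.32), DGD1 (-1.25) and BTA1 (-1.08) were at least 2-fold lower at 12 h, against 5.78% of tested genes. The 12 h values of FAD3 (3.76 and 2.37 FPKM) are low and therefore the least precise of these.

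As deposited, 7 of the 12 members had AgNP ratios above 0 at both times, against 67.7% of tested genes, 5 below 0 at both times, against 16.3%, and 0 of opposite sign, against 16.0%, although SQD1 was as near 0 as 0.09 and 0.00. With equal sums 1 was above at both times (ACP2), 7 were below, and ACP1, BCC2, HAD1 and KAS1 had opposite signs, against 10.4%, 51.7% and 37.9% of tested genes. With the span trend taken out 3 were above at both times, 5 were below, and ACP1, ACP2, KAS2 and SQD1 had opposite signs, against 37.5%, 36.0% and 26.6%. BCC1, BTA1, DGD1, FAD3 and FAD7 were below 0 at both times as deposited, and therefore necessarily with equal sums, and also with the span trend taken out. The share of tested genes below 0 on all 3 scales was not computed. Among the 12, both AgNP libraries lay above both controls for ACP1, ACP2, BCC2 and KAS1, against 41.4% of tested genes, and below both for DGD1, against 6.21%. With equal sums ACP2 remained above, against 5.14%, and DGD1 below, against 22.3%. DGD1 was bound to stay below, since both AgNP sums exceeded both control sums. The libraries of one treatment come from different times and are not replicates.

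The third comparison set 12 h against 2 h in the controls. Here 6 of 12 members were at least 2-fold lower at 12 h, against 7.80% of tested genes: FAD3 (log2 ratio -1.54), FAD7 (-1.49), BTA1 (-1.45), BCC1 (-1.44), KAS2 (-1.39) and SQD1 (-1.12). FAD3 and KAS2 were under 5 FPKM in both 12 h libraries and passed the limit only through their 2 h values, so their place in this count is not independent of the filter. With a mean of at least 20 FPKM 2 of 7 members were lower, against 6.60% of tested genes. HAD1 (1.22) and ACP2 (1.02) were at least 2-fold higher, against 20.2%. The members' median was -0.94, against 0.26 for all tested genes. BCC2 (-0.76) was the nearest under the limit, while KAS1 (-0.15), ACP1 (0.15) and DGD1 (0.43) differed less. The 6 lower genes come from all 3 role groups and include 1 member of each pair formed by the carboxyl carrier and the condensing enzyme genes. This contrast again uses the 2 h control, and with equal sums HAD1 was at 0.03 and ACP2 at -0.19, while the 6 lower genes were between -2.69 and -2.32. Equal sums lower every ratio of this contrast, so those 6 were bound to stay lower. On that scale 9 of 12 members were at least 2-fold lower, against 43.6% of tested genes.

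The fourth comparison set the same times against each other with AgNPs, without the 2 h control. The 6 members at least 2-fold lower were the same 6, against 8.07% of tested genes, and 0 were at least 2-fold higher, against 17.1%. FAD3 and KAS2 again entered the count through their 2 h values. With a mean of at least 20 FPKM 2 of 7 members were lower, against 7.65%. FAD3 had -1.75, BTA1 -1.71, FAD7 -1.58, BCC1 -1.29, KAS2 -1.27 and SQD1 -1.21, with a median over all 12 members of -0.90 and 0.20 over all tested genes. The controls and the AgNP libraries share no library, but each set of values rests on 1 library per time and the 2 sets are not replicates. HAD1 was higher by 0.73, ACP1 by 0.66 and DGD1 by 0.17, and ACP2 had -0.11. With equal sums, which again lower 12 h against 2 h, 6 members were at least 2-fold lower, against 16.0% of tested genes. Once the trend with gene span was taken out, KAS2 (-0.97) and SQD1 (-0.997) were just under 2-fold and the other 4 genes between -1.41 and -1.56.

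**Figure D3:**
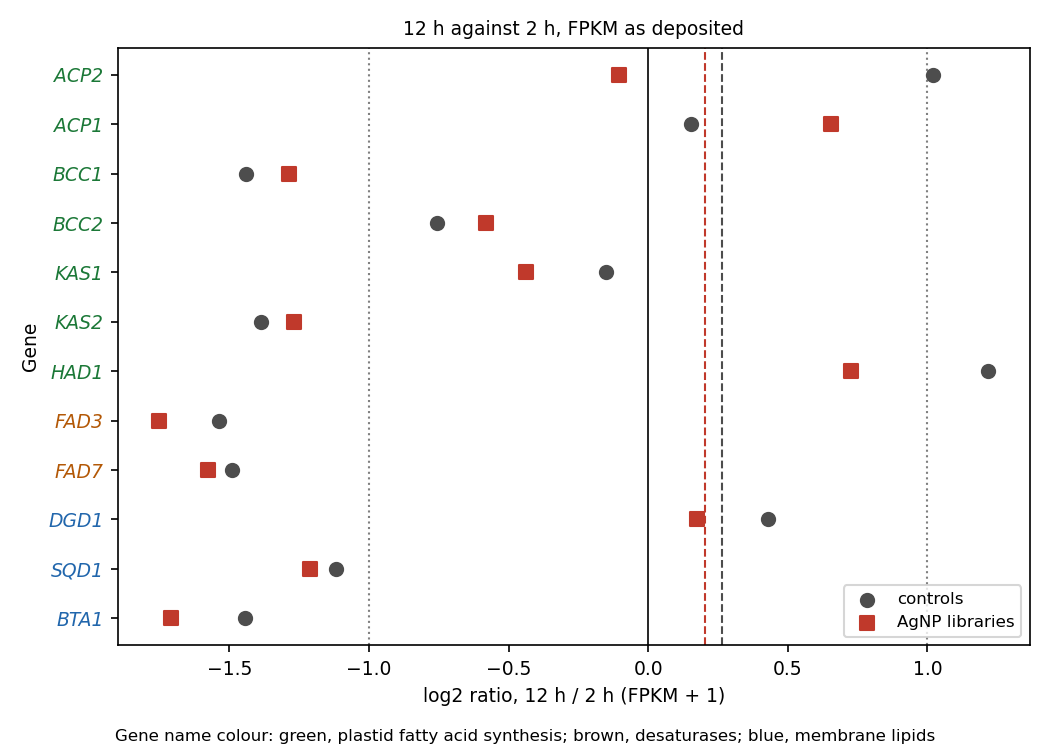
Log2 ratio of FPKM + 1, 12 h over 2 h, for the 12 genes averaging 5 FPKM or more, in the controls (grey circles) and in the AgNP libraries (red squares); dashed lines are the medians of all tested genes and dotted lines mark 2-fold. FAD3, FAD7, BTA1, BCC1, KAS2 and SQD1 lie left of -1 in both, and ACP2 lies at 1.02 in the controls and at -0.11 with AgNPs.

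Ratios between genes of 1 library do not depend on how libraries were scaled. BCC2 over FAD7, a synthesis gene against a desaturase, was 3.12 (2 h) and 5.44 (12 h) in the controls, and 8.81 and 19.5 with AgNPs. KAS1 over FAD7 was 2.94, 7.85, 9.38 and 23.0, in the usual order. Both ratios were thus larger with AgNPs at each time and larger at 12 h within each treatment. These pairs were chosen after the values had been seen. FAD7 had the lowest AgNP ratio of the members counted at each time, so the direction with AgNPs was given in advance. The direction with time was too, since FAD7 had lower time ratios than BCC2 and KAS1 in the controls and with AgNPs. The trend with gene span, described below, was not taken out of these ratios. BCC2 spans 2878 bases, FAD7 4045 and KAS1 10903.

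**Figure D4:**
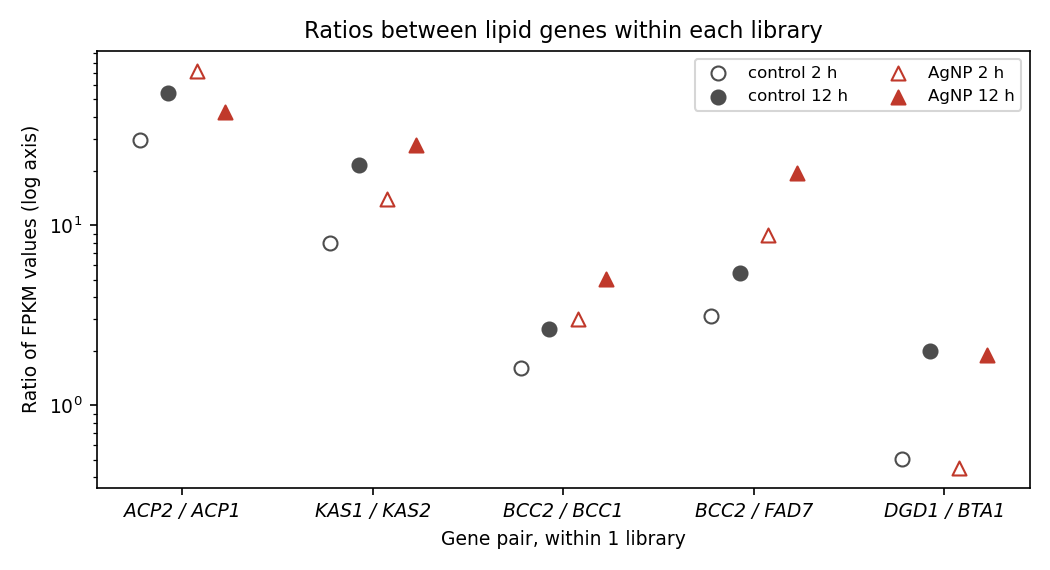
Ratio of FPKM values of 2 genes within 1 library, on a log axis, for 5 pairs; circles are controls, triangles AgNP libraries, open symbols 2 h and filled symbols 12 h, with 1 library per symbol. BCC2 over BCC1 runs from 1.62 to 5.04 and BCC2 over FAD7 from 3.12 to 19.5, both lowest in the 2 h control and highest in the 12 h AgNP library, while DGD1 over BTA1 divides by time.

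Gene span moved with the ratios. Over the 12 members the rank correlation of span with the AgNP ratio was -0.45 at 2 h and -0.60 at 12 h, and over all 3271 tested genes it was -0.43 and -0.53. The 5 membrane lipid genes span 4922 to 8050 bases, introns included, and the 7 synthesis genes 1205 to 10903 with a median of 2878. KAS1, the longest, was an exception, with AgNP ratios of 0.84 and 0.56. With the trend removed the median of the synthesis genes went from 0.67 to 0.12 at 2 h and from 0.70 to 0.24 at 12 h. HAD1 at 2 h had 0.58 and ACP1 at 12 h 0.29, so neither was then 2-fold higher, while KAS1 at 2 h (1.03) was, beside ACP2 (1.09, and -0.03 at 12 h). On the same scale FAD7 was at -1.13 and -1.12, DGD1 at -0.53 and -0.67, BTA1 at -0.41 and -0.55 and FAD3 at -0.41 and -0.50 at 2 h and 12 h.

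Position was shared by some members, which the choice by symbol did not use. FAD3, BCC2, SQD2 and FAD7 lie within 115773 bases of chromosome 1, from 5368063 to 5483835. SQD2 (5471606 to 5479655) and FAD7 (5479791 to 5483835) are neighbours with 135 bases between them and no other gene. Both were lower at 12 h, SQD2 at 1.48 FPKM without and 1.45 with AgNPs, but as deposited the AgNP log2 ratios of FAD7 were -0.79 and -0.88 and those of SQD2 0.01 and -0.01. The orientation of the genes is not given in the tables, and whether reads were counted by strand is not given in the sources used here.

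Other genes of lipid and acetyl-CoA metabolism were taken from a list of 49 symbols, of which 26 were in the tables and 12 passed the limit of 5 FPKM. At 2 h with AgNPs 2 of 12 were at least 2-fold higher and 0 lower, and at 12 h 0 were higher and 0 lower, beside 22.0% and 1.62% of all tested genes at 2 h and 16.7% and 0.459% at 12 h. The 2 genes were ECH1, an enoyl-CoA hydratase gene by its symbol (40.04, 129, 97.6 and 230 FPKM), and PDC2, a pyruvate dehydrogenase subunit gene (97.6, 96.6, 196 and 128). Their log2 ratios at 2 h were 1.26 and 1.0009, that of PDC2 barely over the limit. Both rest on the 2 h control with the low sum and were computed as deposited only. ACS3, an acetyl-CoA synthetase gene, stood at 297, 221, 204 and 134 FPKM, lower with AgNPs at both times by less than 2-fold. GPD2, a glycerol-3-phosphate dehydrogenase gene, stood at 18.1, 13.2, 31.9 and 16.8. PAP1 (5.47, 7.05, 11.2 and 8.04) and PGP1 (34.7, 18.4, 51.2 and 34.2) complete the 6 with the largest ratios, but PGP1 is known in Chlamydomonas as phosphoglycolate phosphatase, an enzyme of photorespiration, and the function of PAP1 is not given in the files. The median log2 ratio of the 12 was 0.38 at 2 h and 0.17 at 12 h, beside 0.48 and 0.44 over all tested genes. The 12 also hold PGP2, which shares the symbol of PGP1, so these counts and medians are not of lipid and acetyl-CoA genes alone.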

How the data were processed

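Per the labels' protocols, Trizol was used to extract RNA and an Illumina mRNA-Seq kit to build the libraries. The authors deposited 1 FPKM value per gene and library, as the file headers show. The submitters' processing notes name Cuffdiff and give no version. Not given in the sources used here are the aligner, the genome build, filters and how libraries were scaled. Read depth is unknown in absolute terms. Relative depth was read from the ratio that occurred most often among low values (both under 0.2 FPKM, counted within 0.05, log2).

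Members were rows whose symbol begins with a lipid gene name. Members, role groups and lists were chosen with earlier results of these data known. Every member with a mean of at least 5 FPKM is named with all its values. Of the other list, up to 6 genes with the largest AgNP ratios are named. Ratios are log2 of FPKM + 1. No test was run, with 1 library per group. Coordinates are those of the files with 1 added to the start. All 15 members have the same start and end in the RefSeq table of assembly Chlamydomonas_reinhardtii_v5.5. The members' log2 ratios, their counts and medians, and the counts over all tested genes were also computed under 6 other settings. These were a pseudocount of 0.1, no filter, a filter at 20 FPKM, equal sums and centring on the median tested gene. In the last a lowess curve over log10 span (fraction 0.5) was subtracted. The span correlations and the list of other pathway genes were computed as deposited only. The 12 h control as reference at 2 h and the synthesis group without ACP1 were added after the data were seen. The code was tested on simulated data. Python 3.11.15, numpy 2.4.6, pandas 2.3.3, scipy 1.17.1, statsmodels 0.14.6 and matplotlib 3.10.9 were used.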

Additional observations from a re-analysis of the deposited data

Results flagged for a closer look

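The difference between 12 h and 2 h had opposite signs for ACP2 in the controls (log2 ratio 1.02) and with AgNPs (-0.11), a difference of -1.13. It was not tested, since each value rests on 1 pair of libraries. With equal sums the values were -0.19 and -0.52, so the opposite signs hold on the deposited scale and not with equal sums. The control value uses the 2 h control, whose FPKM sum was the lowest.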

How the results depend on the processing

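The labels give no replicate numbers, and with 1 library per group no replicate could be left out. A fit with the times as pairs would leave 1 residual degree of freedom and was not run. A shift of a median by more than 0.1 (log2) was taken as a move. Pseudocount 0.1 moved no count or median of the members in any of the 4 comparisons. At 2 h with AgNPs (2 members higher, 0 lower, median 0.06) the median was 0.67 with a mean of at least 20 FPKM. Equal sums put 0 higher and 7 lower (median -1.24), against 0.795% and 35.6% of tested genes. Centring gave 1 higher and 1 lower (-0.42), against 5.47% and 6.97%. Removal of the span trend gave 2 higher, with KAS1 in place of HAD1, and 1 lower (-0.20), against 4.49% and 4.71%. The 12 h control as reference gave 6 higher (1.03), against 13.0%. At 12 h (1 higher, 0 lower, median 0.08) the median was 0.70 with at least 20 FPKM. Equal sums gave 0 higher and 3 lower (-0.39), against 2.32% and 5.78% of tested genes. Centring gave 0 and 3 (-0.36), against 3.03% and 5.35%, and removal of the span trend 0 and 1 (-0.010), against 2.48% and 2.60%. For time in the controls (2 higher, 6 lower, median -0.94), the median was -0.76 without a filter and -0.15 with at least 20 FPKM. With that filter 2 genes were lower, against 6.60% of tested genes. The medians were -2.14 with equal sums, -1.20 centred and -1.07 after removal of the span trend. In each 0 genes were higher, against 2.57%, 13.3% and 11.2% of tested genes in the same order. The genes lower were 9, 7 and 7, against 43.6%, 12.4% and 11.0%. For time with AgNPs (0 higher, 6 lower, median -0.90), the median was -0.58 without a filter, -1.28 with equal sums and -1.10 centred. With at least 20 FPKM it was -0.44, with 2 genes lower, against 7.65% of tested genes. The stricter filter tests fewer members, 7 in place of 12. Among single genes at least 2-fold apart, signs turned for HAD1 at 2 h with AgNPs (-0.13 with equal sums, -0.030 against the 12 h control) and for ACP2 over time in the controls (-0.19 with equal sums). The cause of the difference in FPKM sums was not tested. FPKM holds no counts, so no interval for counting error can be given, and values under 5 FPKM are the least precise.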
